A study of Mus musculus with 6 samples.

Results

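The DNA replication machinery is described here as 41 genes, chosen by name as the subunits and factors that license origins, unwind DNA, synthesise and join both strands and supply deoxyribonucleotides. They were chosen with earlier results of these data known. All 41 were among the 20325 genes listed for each library. RNA was sequenced from 2 populations of mouse neural stem cells undergoing reprogramming, Nanog+E-cadherin+ cells (n = 3) and Nanog+E-cadherin- cells (n = 3). The cells of both groups came from postnatal day 4 mice of mixed 129/Black 6 strain. These mice were homozygous at the ColA1 locus for a doxycycline-inducible Stemcca cassette of Oct4, Sox2, c-Myc and Klf4 and heterozygous for rtta at Rosa26, and doxycycline was given until day 7. All cells were fixed, permeabilised, stained for both proteins and sorted before RNA was isolated. Both groups are positive for Nanog, so they differ by design only in E-cadherin, and neither uninduced neural stem cells nor Nanog-negative cells are among these libraries. Replicates carry the numbers 1 to 3 in both groups. No label ties a number to a culture or an animal, and p-values therefore reflect only how far these libraries spread, which may be technical.

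Replication begins in G1, when the origin recognition complex binds DNA and, with Cdc6 and Cdt1, loads the ring-shaped MCM helicase. In S phase Cdc45 and the GINS complex turn this ring into an active helicase, polymerase alpha-primase lays down primers, and polymerases delta and epsilon extend them on the sliding clamp Pcna. Many of these genes are known targets of E2F transcription factors and are transcribed most strongly around the entry into S phase. Pluripotent cells are known for a short G1 phase and a large share of cells in S phase.

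The 41 genes were mostly a little higher in Nanog+E-cadherin+ cells, and none of them passed the test over all genes. The fitted change lay above 0 for 38 of the 41 in edgeR, and Orc2, Orc3 and Rpa3 lay below it (Orc2 lay at 0.0084 in limma-voom with group only). The median log2 fold change, Nanog+E-cadherin+ over Nanog+E-cadherin-, was 0.46 with group as the only term and 0.51 with the replicate number as a block, a 1.43-fold difference. Over all 13460 genes tested the medians were -0.01 and 0.02, and 48.5% of genes were fitted higher with group only (51.9% with the block).

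All 41 genes passed the filter on low counts, and the lowest expected count of any member in any library was 28. The quasi-likelihood test of edgeR, adjusted by Benjamini-Hochberg, put 0 of the 41 under an adjusted p of 0.05 with group only, as it did 0.0% of all genes. Of the 41, 2 had an unadjusted p under 0.05, both higher, against 1.08% of all genes. DESeq2's Wald test and limma-voom with group only also called 0 members. They put 2 and 3 members under an unadjusted p of 0.05, against 490 and 256 of the 13460 genes. DESeq2's group-only fit gave no adjusted p for at least Orc1, Orc4, Orc5, Cdc6, Gins1, Gins3, Pola1, Prim1, Prim2 and Pole2. These members could not be called in it. With the replicate block edgeR called 0.305% of all genes and 0 of the 41, whose smallest adjusted p was 0.0978, for Pcna. In that fit 26 members had an unadjusted p under 0.05, all of them higher, against 5.51% of all genes that were higher at that p. The count of members called with the block depended on the tool and the libraries.

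DESeq2's Wald test with the block called 12 members, all higher (2.26% of all genes called, 1.37% called higher). These 12 were Mcm5, Mcm10, Cdc45, Prim1, Prim2, Pold1, Pcna, Rfc5, Fen1, Rpa1, Rrm1 and Rrm2, and 28 members were higher at an unadjusted p under 0.05 (6.86% of all genes). Blocked limma-voom called 5, namely Mcm10, Pcna, Rfc5, Rrm1 and Rrm2 (1.96% of all genes called, 0.981% called higher), with 26 higher at an unadjusted p under 0.05 (5.94% of all genes). In edgeR with the block and no filter on low counts 13 passed, the 12 of DESeq2 and Gins4 (1.93% of all genes called, 1.12% called higher), and 29 were higher at an unadjusted p under 0.05 (5.85%). Leaving out both libraries numbered 1 gave 5 calls in edgeR (1.34% of all genes), leaving out those numbered 2 gave 1 call, Prim2 (1.03%), and leaving out those numbered 3 gave 9 calls (3.31%). Pcna, Rfc5 and Fen1 were among the calls without the libraries numbered 1 and without those numbered 3.

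**Figure D1:**
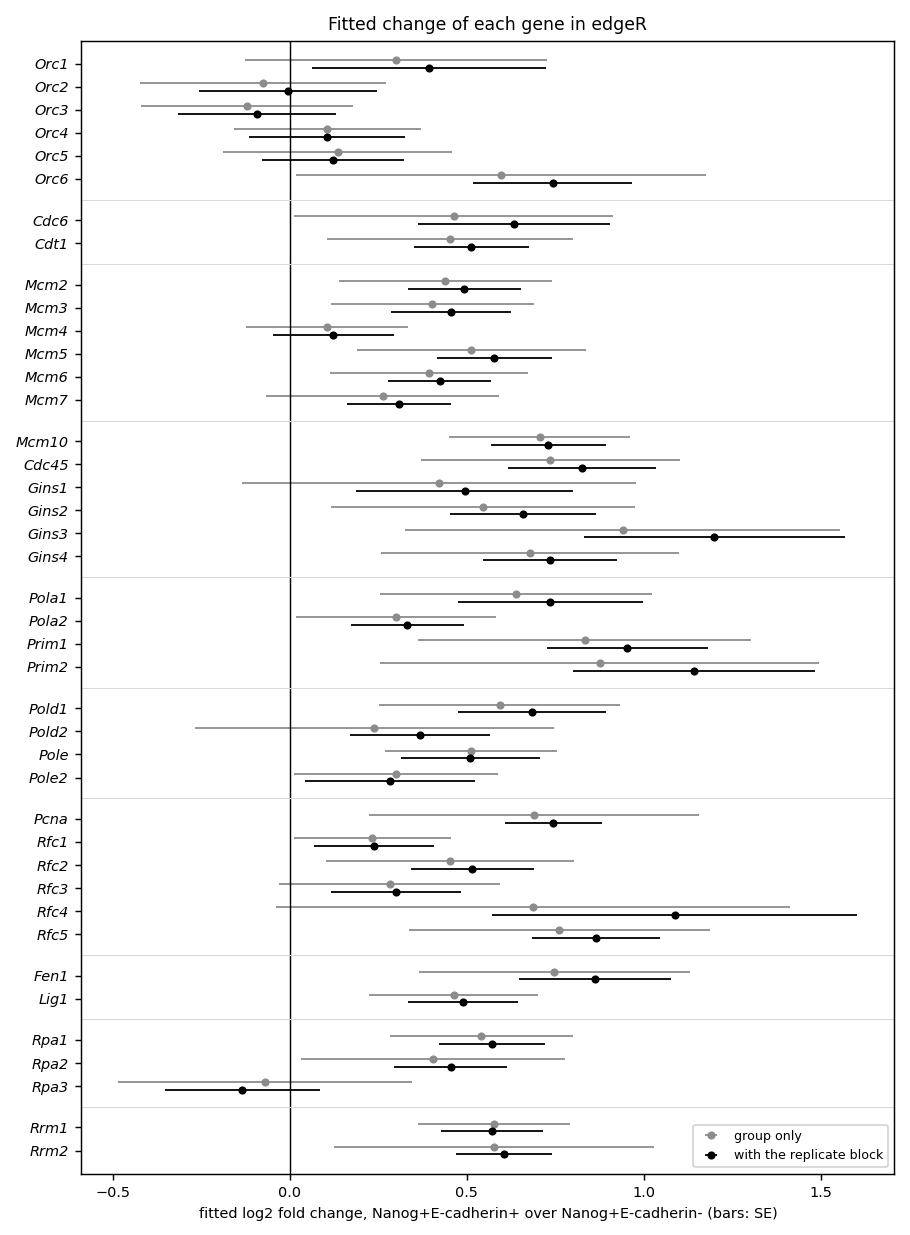
Fitted log2 fold change of each of the 41 genes in edgeR (x axis, Nanog+E-cadherin+ over Nanog+E-cadherin-), grey with group only and black with the replicate block. Bars give the standard error derived from the test statistic, and thin lines lie between the role groups. Points lie right of 0 for 38 genes in both fits, and the bars of most genes are shorter with the block.

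The direction was the same within most pairs of libraries that share a replicate number. In the pair numbered 1, 40 of the 41 genes were higher in Nanog+E-cadherin+ cells, in the pair numbered 2 it was 38 and in the pair numbered 3 it was 34, against 50.5%, 48.5% and 52.7% of all genes. The median ratio of the 41 was 1.18-fold, 1.49-fold and 1.64-fold in these pairs. In all 3 pairs together 31 members were higher, against 18.9% of all genes, and 0 were lower in all 3, against 17.3%. The exceptions were Orc1, Orc2, Orc3, Orc5, Cdc6, Mcm4, Gins1, Pole2, Rfc1 and Rpa3.

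**Figure D2:**
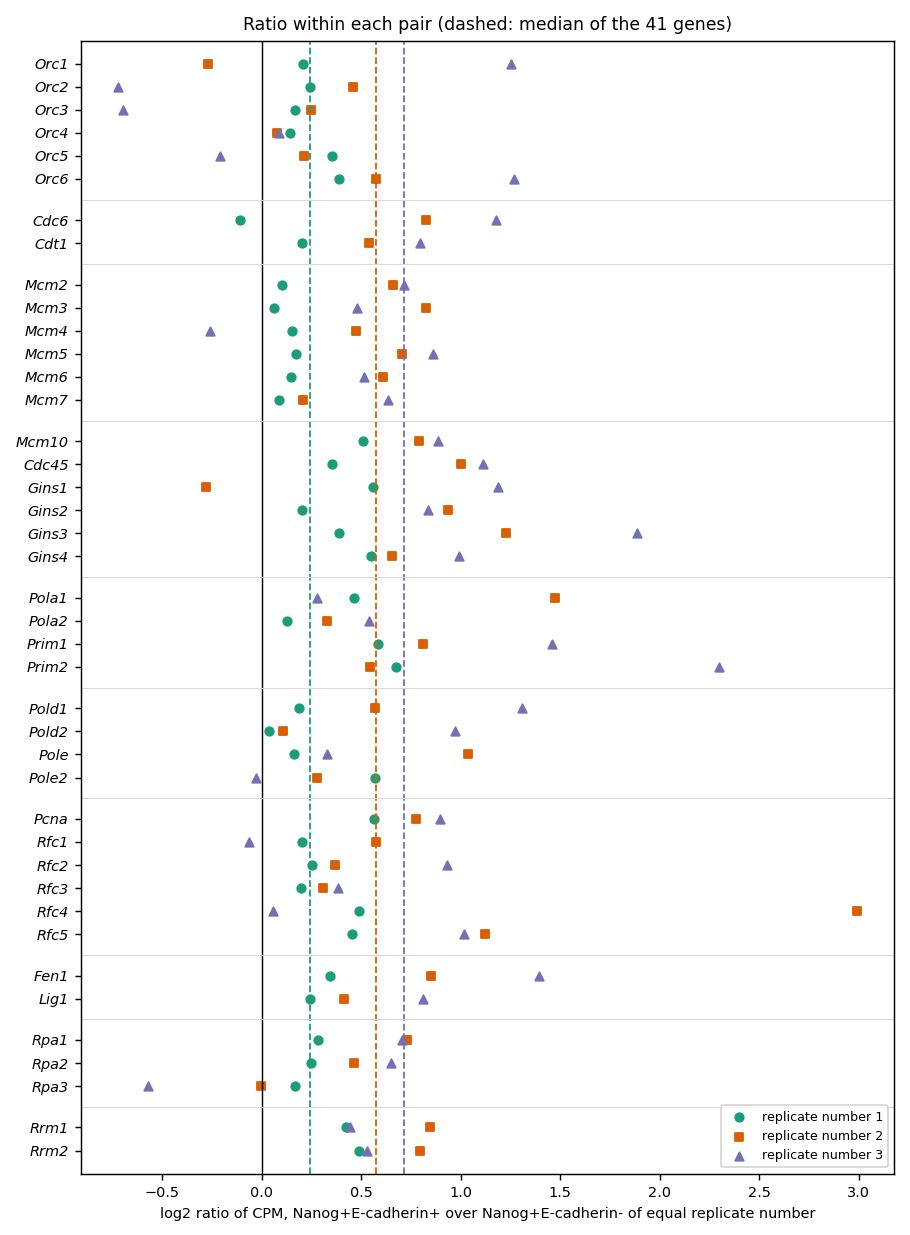
Log2 ratio of CPM (x axis) of each gene within each pair of equal replicate number, with 1 marker per pair and dashed lines at the median of the 41 genes. The medians of the pairs numbered 1, 2 and 3 stand at 0.24, 0.58 and 0.71, and most markers lie right of 0.

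The spread between replicate numbers was wider than the difference between the populations for most members. The means of the numbered pairs spanned a median of 1.75-fold, and for 36 of the 41 genes this span exceeded the blocked fold change between groups. The pair numbered 1 had the highest mean CPM for 38 genes, and the pair numbered 3 the lowest for 27. A span is the largest difference among the pair means, while the blocked fold change is an average over pairs. These counts were not made over all genes, so whether the members stand out in them was not tested. By library, Nanog+E-cadherin+ replicate 1 held the highest CPM (counts scaled to library size with edgeR's TMM factors) for 36 genes, and Nanog+E-cadherin- replicates 2 and 3 held the lowest for 15 and 25. This order depended on the scale. In TPM, Nanog+E-cadherin+ replicate 1 was highest for 4 genes and Nanog+E-cadherin+ replicate 2 for 27, and Nanog+E-cadherin- replicates 2 and 3 were lowest for 10 and 23.

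The 3 libraries of each group did not overlap for 5 members, all higher in Nanog+E-cadherin+ cells, against 3.74% of all genes, and 0 were lower without overlap (3.25% of all genes). These were Mcm10, Pola1, Lig1, Rpa1 and Rrm1. With Nanog+E-cadherin- replicate 1 set aside 30 members did not overlap (15.8% of all genes), and with Nanog+E-cadherin+ replicate 3 set aside 11 did not (5.71% of all genes). On the TPM scale, where each value is divided by transcript length and by the library's own sum, 16 members did not overlap (3.19% of all genes), and in CPM of library totals 10 did not (4.25% of all genes). Mcm10 and Rpa1 were among the 16 in TPM, while Pola1, Lig1 and Rrm1 overlapped there. The group-only median log2 fold change became 0.85 when Nanog+E-cadherin- replicate 1 was set aside. It became 0.28 when the Nanog+E-cadherin+ library numbered 1 was set aside instead, and 0.30 when the Nanog+E-cadherin- library numbered 3 was.

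Facts of the whole series that touch these values are few. Total expected counts ran from 8851110 to 39630916 per library. Cdh1, which encodes E-cadherin, followed the sort (129 ± 21.4 against 17.4 ± 2.53 CPM, SD, n = 3 each), and Nanog did not separate the groups (116.6 ± 15.1 against 107 ± 28.3 CPM). Summed over 1447 olfactory and vomeronasal receptor genes, which these cells are not known to use, Nanog+E-cadherin- replicates 2 and 3 had 1886 and 1215 CPM of library totals and the other 4 libraries between 31.9 and 155. The pair numbered 1 holds neither of those libraries: 40 of the 41 replication genes were higher there, with the smallest median ratio of the pairs, 1.18-fold against 1.49-fold and 1.64-fold in the pairs that hold them. With both left out, Nanog+E-cadherin- replicate 1 alone was set against 3 libraries and the median log2 fold change of the members was -0.049, a fit that mixes group with replicate number. Summed fibroblast and mesenchyme markers (11 genes) stood at 1810 and 2066 CPM of library totals in Nanog+E-cadherin+ and Nanog+E-cadherin- replicates 1 and at 5846 to 7314 CPM in the other 4, and so moved with the replicate number. Neuron markers (15 of 16 listed genes in the files) summed to 949.8, 502 and 299 CPM in Nanog+E-cadherin+ replicates 1 to 3. In Nanog+E-cadherin- replicates 1 to 3 they summed to 1370.4, 854 and 516 CPM, and so moved with both the replicate number and the group. Of the 13 tested, 10 were lower in Nanog+E-cadherin+ cells in all 3 pairs (17.3% of all genes), with a blocked median log2 fold change of -1.19. In edgeR's blocked test 2 of them fell, against 12 of the 13460 genes tested. Epithelial markers, Cdh1 among them, summed to 490 to 628 against 245 to 531 CPM, with a blocked median of 1.21 and 9 of 13 higher without overlap (3.74% of all genes). In all 3 pairs 9 of the 13 were higher and 2 lower (18.9% and 17.3% of all genes). Pluripotency markers summed to 1027 to 1249 against 882 to 1089 CPM, with a blocked median of 1.18 over 12 tested. Of these 12, 1 was higher without overlap. In edgeR's blocked test 1 epithelial and 1 pluripotency marker rose (0.215% of all genes). The epithelial one was Cdh1, whose protein was used for the sort, so its rise follows from the design. With group only 0 of the neuron, epithelial and pluripotency markers passed. Of the labelled source cells' markers, all 13 neural stem and radial glia genes in the files were above 1 CPM in at least 1 library, and they summed to 708 to 2047 and 1020 to 2057 CPM. Blood and microglia markers summed to at most 16.7 CPM, with Hbb-b1 at 0 in all 6. The part of these differences in the replication genes' values was not tested. In bulk RNA, fewer cells in S phase and less RNA of these genes per cell cannot be told apart.

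Promoter sequence is shown for the 4 members of smallest p in the blocked fit that have an entry in the RefSeq promoter table (build GRCm38.p6), as a feature that the choice of genes did not use. Each line gives the 250 bases before the annotated start, 5′ to 3′ on the gene's strand, with matches to the motifs searched in capitals.
Pcna (chr2:132253181-132253430, minus strand): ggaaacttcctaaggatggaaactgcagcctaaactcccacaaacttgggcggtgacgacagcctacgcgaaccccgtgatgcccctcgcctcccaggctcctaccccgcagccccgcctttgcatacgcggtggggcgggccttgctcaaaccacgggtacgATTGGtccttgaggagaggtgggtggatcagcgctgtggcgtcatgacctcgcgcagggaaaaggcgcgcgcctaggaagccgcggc
Rfc5 (chr5:117389024-117389273, minus strand): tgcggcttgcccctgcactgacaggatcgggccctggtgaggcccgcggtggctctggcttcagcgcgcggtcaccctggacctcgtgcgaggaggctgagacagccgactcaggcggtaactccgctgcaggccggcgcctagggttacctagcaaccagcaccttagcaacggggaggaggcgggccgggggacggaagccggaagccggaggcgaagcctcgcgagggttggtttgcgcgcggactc
Mcm10 (chr2:5012792-5013041, minus strand): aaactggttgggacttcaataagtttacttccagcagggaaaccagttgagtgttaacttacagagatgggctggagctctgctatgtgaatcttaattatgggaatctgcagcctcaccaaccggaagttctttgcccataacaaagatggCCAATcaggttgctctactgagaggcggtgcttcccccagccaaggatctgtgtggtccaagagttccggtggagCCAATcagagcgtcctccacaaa
Rrm2 (chr12:24708004-24708253, plus strand): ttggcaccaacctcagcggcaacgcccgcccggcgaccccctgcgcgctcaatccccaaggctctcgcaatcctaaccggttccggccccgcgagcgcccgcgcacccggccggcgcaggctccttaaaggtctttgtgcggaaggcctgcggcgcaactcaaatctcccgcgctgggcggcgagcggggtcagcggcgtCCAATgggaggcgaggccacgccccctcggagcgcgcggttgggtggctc
The capitals mark CCAAT or its reverse complement, the box bound by the factor NF-Y. Pcna held it 87 bases before the start, Rrm2 50 bases and Mcm10 98 and 23 bases, while Rfc5 held none of the motifs searched. Over the 42 windows of the 34 members with an entry, 24 windows (57.1%) held CCAAT on either strand, against 33.9% of all 32851 windows of that length. The octamers TTTCGCGC, TTTGGCGC, TTTCCCGC and TTTGGCGG, spellings of the E2F site searched on both strands, were in 10 windows (23.8%) of 10 genes, against 1.96% of all windows. TTTGAA or TTCGAA, spellings of the CHR element of late cell-cycle promoters, were in 7 windows (16.7%), against 17.1% of all. Member windows had a median GC content of 59.6% and all windows one of 52.4%, and a match is not a binding site.

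The 10 members with an E2F octamer are shown as 30 bases around the first listed match, with the octamer in capitals as it reads on the gene's strand (RefSeq, GRCm38.p6).
Orc1 (chr4:108579416-108579445, plus strand): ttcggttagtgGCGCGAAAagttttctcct
Orc3 (chr4:34614965-34614994, minus strand): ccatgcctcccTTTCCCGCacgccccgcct
Cdc6 (chr11:98908002-98908031, plus strand): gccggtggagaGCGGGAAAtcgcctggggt
Mcm5 (chr8:75109345-75109374, plus strand): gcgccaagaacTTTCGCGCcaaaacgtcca
Mcm6 (chr1:128359793-128359822, minus strand): gtatgcttttgGCGCGAAAagtgcgtgcgg
Mcm7 (chr5:138172030-138172059, minus strand): aatttcgaaccGCGGGAAAcagggtgtcca
Gins3 (chr8:95633507-95633536, plus strand): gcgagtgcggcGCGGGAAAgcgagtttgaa
Pola1 (chrX:93632275-93632304, minus strand): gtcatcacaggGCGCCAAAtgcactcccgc
Rfc3 (chr5:151651209-151651238, minus strand): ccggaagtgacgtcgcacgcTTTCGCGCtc
Rpa1 (chr11:75348582-75348611, minus strand): attctgtctgtCCGCCAAAggactgggcgg
They span most roles, from the origin-binding subunits Orc1 and Orc3 to the helicase subunits Mcm5, Mcm6 and Mcm7 and the single-strand binder Rpa1. In Mcm5 and Mcm6 the marked octamer overlaps a match to TTTGGCGC, and Mcm6 held a further match 47 bases before its start. The blocked log2 fold changes of these 10 genes ran from -0.09 to 1.20 with a median of 0.50, and those of the 24 members with a window and no octamer from -0.13 to 1.09 with a median of 0.50.

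Origin recognition genes, from here on with values listed in the order of replicates 1 to 3, showed the smallest differences of the role groups. The 6 subunits had a median log2 fold change of 0.11 in the blocked fit, and 2 of them, Orc4 and Orc6, were higher in all 3 pairs. Orc6, the smallest subunit, stood at 81.9, 37.5 and 35.3 CPM in Nanog+E-cadherin+ cells and at 62.6, 25.0 and 14.4 CPM in Nanog+E-cadherin- cells. Each Nanog+E-cadherin+ library was above the library of the same number, and the groups overlapped because Nanog+E-cadherin- replicate 1 was the second highest. Its log2 fold change was 0.74 ± 0.23 (SE) with the block, with an unadjusted p of 0.00968 and an adjusted p of 0.287 in edgeR's test. Orc1, the subunit known to vary most through the cell cycle, was 20.5 ± 4.57 against 16.6 ± 7.52 CPM (SD, n = 3 each), and its low library was Nanog+E-cadherin- replicate 3 at 7.98 CPM. Orc2 and Orc3 had their highest value in that same library, at 70.0 and 80.3 CPM, so that Orc1 and Orc6 lay lowest where Orc2 and Orc3 lay highest. Orc2 and Orc3 had fitted log2 fold changes of -0.01 ± 0.25 and -0.09 ± 0.22 (SE, blocked), and Orc4 and Orc5 of 0.11 ± 0.22 and 0.12 ± 0.20. Per length, Orc6 had the highest mean TPM of the complex, 43.98 ± 15.8 (SD, n = 6), followed by Orc5 at 34.6 ± 6.42 TPM. Orc4 and Orc1 were lowest, both at 10.9 TPM, and did not differ beyond their spread (SD 1.23 and 2.76).

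The MCM loading factors both had a fitted change above 0. Cdt1, which brings the MCM ring to origins, stood at 179.7, 117 and 126 CPM in Nanog+E-cadherin+ cells and at 156, 80.5 and 72.2 CPM in Nanog+E-cadherin- cells. It was higher in every pair, and the groups overlapped through Nanog+E-cadherin- replicate 1. The fitted log2 fold change was 0.51 ± 0.16 (SE, blocked; adjusted p = 0.311 in edgeR's test). Cdc6, the ATPase that works with the origin recognition complex, was 0.929-fold in the pair numbered 1, 1.77-fold in the pair numbered 2 and 2.26-fold in the pair numbered 3. Cdt1 was above Cdc6 per length in all 6 libraries, with means of 98.1 ± 17.3 and 13.5 ± 4.36 TPM (SD, n = 6).

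Of the 6 MCM helicase genes, 5 were higher in all 3 pairs. Mcm5 stood at 423, 333 and 335 CPM in Nanog+E-cadherin+ cells and at 376, 205 and 185 CPM in Nanog+E-cadherin- cells. Nanog+E-cadherin- replicate 1 lay within the other group and the other 2 lay far below it, as for Mcm2, Mcm3 and Mcm6. The log2 fold change of Mcm5 was 0.51 ± 0.32 (SE) from group alone and 0.58 ± 0.16 once blocked, for an adjusted p of 0.264 in edgeR's blocked test. Mcm7, the subunit of highest TPM, stood at 632, 479 and 442 CPM in Nanog+E-cadherin+ cells and at 595, 414 and 285 CPM in Nanog+E-cadherin- cells. The blocked log2 fold changes were 0.49 for Mcm2, 0.46 for Mcm3, 0.42 for Mcm6 and 0.31 for Mcm7. Mcm4 differed from these: it was higher in the pairs numbered 1 and 2 (1.11-fold and 1.39-fold) and 0.836-fold in the pair numbered 3, with a fitted value of 0.12 ± 0.17 (SE). The difference between Mcm4 and the other subunits was not tested.

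Although the MCM proteins form a ring with equal parts of each subunit, their transcripts were not at equal levels. Mean TPM was 353 ± 51.1 for Mcm7 and 65.7 ± 15.7 for Mcm4 (SD, n = 6), and Mcm7 was the highest and Mcm4 the lowest in every library. Mcm6, Mcm5, Mcm2 and Mcm3 lay together between them, at 169 ± 33.8, 159.9 ± 34.2, 149.9 ± 31.4 and 148 ± 30.6 TPM, closer to each other than their spread. Exons of Mcm7 overlap those of Ap4m1 and Cops6 on the opposite strand in GENCODE's annotation, and whether the authors' counting used strand is not given in the sources used here. Of the 41 members, 16 have an exon overlap with another gene there. For 11 of them a coding gene lies on the opposite strand, namely Orc2, Orc4, Orc6, Mcm7, Cdc45, Gins2, Rfc2, Rfc4, Rfc5, Fen1 and Lig1.

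**Figure D3:**
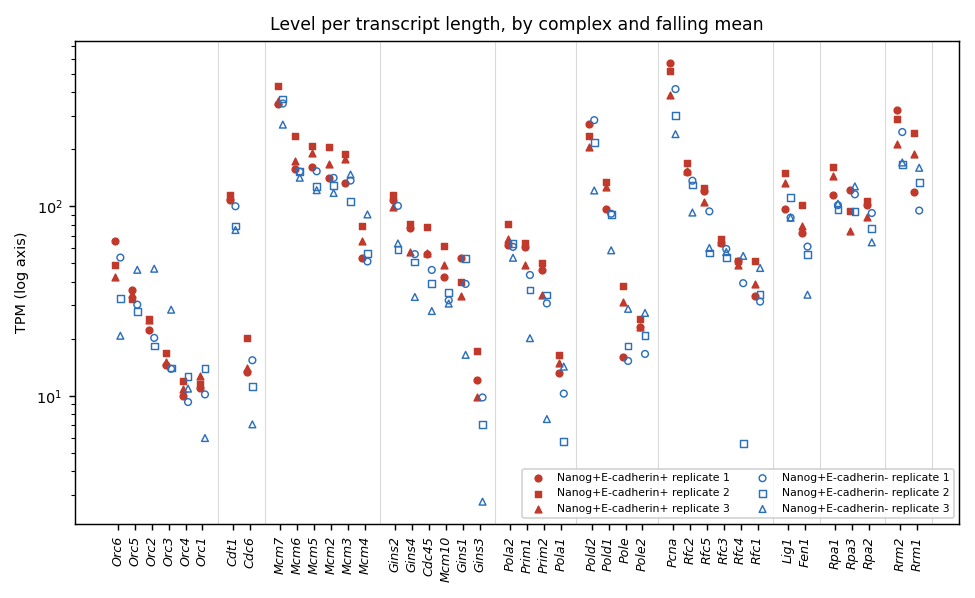
TPM (y axis, log scale) of each gene in each of the 6 libraries, ordered within each role group by falling mean, with filled red markers for Nanog+E-cadherin+ and open blue markers for Nanog+E-cadherin- libraries and the marker shape for the replicate number. Pcna and Mcm7 have the highest means, at 406 and 353 TPM, and Gins3 the lowest, at 9.79 TPM.

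Helicase activation genes showed larger differences than the MCM ring they act on, with a median log2 fold change of 0.73 against 0.44 in the blocked fit, a contrast that was not tested. Mcm10, which is needed to start unwinding, stood at 114.0, 101 and 88.2 CPM in Nanog+E-cadherin+ cells and at 80.0, 57.9 and 47.5 CPM in Nanog+E-cadherin- cells. Every Nanog+E-cadherin+ library was above every Nanog+E-cadherin- library. Its log2 fold change was 0.71 ± 0.26 (SE) from group alone and 0.73 ± 0.16 once blocked (adjusted p = 0.171 in edgeR's test). Mcm10 and Rrm1 are the 2 members under an unadjusted p of 0.05 with group only.

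Cdc45, the helicase partner whose loading marks activation, was 1.28-fold, 2.003-fold and 2.16-fold higher in the 3 pairs, with a blocked log2 fold change of 0.82 ± 0.21 (SE). Among the GINS subunits, Gins2 had the highest TPM and stood at 83.2, 53.7 and 50.8 CPM in Nanog+E-cadherin+ cells and at 72.1, 27.9 and 28.2 CPM in Nanog+E-cadherin- cells. Both low values belonged to Nanog+E-cadherin- replicates 2 and 3, and replicate 1 was second highest of all 6. Gins3 had the largest fitted value of the 41 genes, 1.20 ± 0.37 (SE, blocked; adjusted p = 0.290 in edgeR's test), and rested on the fewest counts. Its values were 22.2, 19.3 and 12.2 CPM in Nanog+E-cadherin+ cells and 16.9, 7.97 and 2.94 CPM in Nanog+E-cadherin- cells, the last from 28 expected counts. Gins4 was 1.46-fold to 1.98-fold higher in the pairs, while Gins1 was 0.824-fold in the pair numbered 2. Per length, the GINS subunits were also unequal, from 90.7 ± 23.5 TPM for Gins2 to 9.79 ± 4.83 TPM for Gins3 (SD, n = 6), the order Gins2, Gins4, Gins1, Gins3 being that of the means.

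Polymerase alpha-primase had the largest median of the role groups, 0.85 on the log2 scale in the blocked fit, and all 4 of its genes were higher in all 3 pairs. Prim1, the catalytic primase subunit, stood at 70.5, 45.2 and 37.8 CPM in Nanog+E-cadherin+ cells and at 46.8, 25.6 and 13.4 CPM in Nanog+E-cadherin- cells. Within pairs it was 1.50-fold, 1.75-fold and 2.75-fold higher, and only Nanog+E-cadherin- replicate 1 lay within the other group. The fitted log2 fold change was 0.95 ± 0.23 (SE, blocked; adjusted p = 0.179 in edgeR's test). Prim2, its partner subunit, was 1.14 ± 0.34 (SE, blocked), and its value of 6.40 CPM in Nanog+E-cadherin- replicate 3 gave a ratio of 4.92-fold in that pair against 1.60-fold and 1.46-fold in the others. Pola2, the accessory subunit and the highest of the 4 in TPM, stood at 115, 90.6 and 83.0 CPM against 105, 72.1 and 56.9 CPM. Its differences were small, between 1.09-fold and 1.46-fold. Pola1, the polymerase itself, did not overlap between the groups in CPM (45.8 ± 7.81 against 29.4 ± 13.2 CPM, SD, n = 3 each), with its lowest library Nanog+E-cadherin- replicate 2 at 14.5 CPM. In TPM its groups overlapped.

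Replicative polymerase genes differed less. Pold1, the catalytic subunit of polymerase delta, stood at 255, 217 and 221 CPM in Nanog+E-cadherin+ cells and at 225, 146 and 89.0 CPM in Nanog+E-cadherin- cells. The groups overlapped by a few CPM, through Nanog+E-cadherin- replicate 1, and the log2 fold change was 0.69 ± 0.21 (SE, blocked; adjusted p = 0.290 in edgeR's test). Pold2, its accessory subunit, stood at 332, 174 and 167 CPM against 323, 162 and 85.0 CPM, so that the pairs numbered 1 and 2 were nearly equal (1.03-fold and 1.08-fold). Pole, the catalytic subunit of polymerase epsilon, was 1.12-fold, 2.05-fold and 1.26-fold higher in the pairs. It was one of few members without their highest CPM in a library numbered 1, at 128 CPM in Nanog+E-cadherin+ replicate 2. Its partner Pole2 was 23.2 ± 5.67 against 18.8 ± 2.15 CPM (SD, n = 3 each) and was 0.982-fold in the pair numbered 3. Pold2 and Pold1 stood at 222.5 ± 58.6 and 99.6 ± 27.5 TPM (SD, n = 6), and Pole and Pole2 at 24.6 ± 9.38 and 22.8 ± 3.75 TPM, which did not differ beyond their spread.

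Pcna, the sliding clamp that tethers the polymerases, had the highest mean TPM of the 41 genes and, in edgeR's blocked fit, the smallest p. With group only its unadjusted p in edgeR's test was 0.18. Many other members had a smaller one in that fit, down to 0.027 for Mcm10 and 0.030 for Rrm1. Pcna stood at 540.1, 298 and 244 CPM in Nanog+E-cadherin+ cells and at 365, 174 and 131 CPM in Nanog+E-cadherin- cells. The pairs gave similar ratios, 1.48-fold, 1.71-fold and 1.86-fold, while the groups overlapped because both libraries numbered 1 were high. Its log2 fold change was 0.69 ± 0.47 (SE) from group alone and 0.74 ± 0.14 once blocked, for an unadjusted p of 0.000471 and an adjusted p of 0.0978 in edgeR's blocked test. Processed pseudogenes of Pcna are annotated in the mouse, so reads could be divided among copies.

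The clamp loader genes Rfc1 to Rfc5 were unequal in their differences. Rfc5 was 117 ± 35.5 against 68.7 ± 40.0 CPM (SD, n = 3 each), with a blocked log2 fold change of 0.87 ± 0.18 (SE, adjusted p = 0.135 in edgeR's test), and its exons overlap those of Wsb2 on the opposite strand. Rfc2 and Rfc3 were higher in all 3 pairs, by 1.19-fold to 1.91-fold and 1.15-fold to 1.30-fold. Rfc1, the large subunit, was nearly level, with 111 ± 14.4 against 94.3 ± 15.7 CPM (SD, n = 3 each). Rfc4 stood at 46.9, 28.3 and 29.8 CPM in Nanog+E-cadherin+ cells and at 33.3, 3.12 and 28.7 CPM in Nanog+E-cadherin- cells. Nanog+E-cadherin- replicate 2, with 36 expected counts, stood far below the other 5 libraries, and the pair ratios were 1.40-fold, 7.96-fold and 1.04-fold. Its fitted log2 fold change was 1.09 ± 0.52 (SE, blocked).

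Fen1 and Lig1, the flap nuclease and the ligase that finish Okazaki fragments, were higher in all 3 pairs. Fen1 stood at 123, 104 and 88.4 CPM in Nanog+E-cadherin+ cells and at 96.6, 57.4 and 33.3 CPM in Nanog+E-cadherin- cells. Its ratio was 1.27-fold, 1.81-fold and 2.63-fold in the pairs, and its log2 fold change 0.86 ± 0.21 (SE, blocked; adjusted p = 0.195 in edgeR's test). Tmem258 overlaps it on the opposite strand. Lig1 stood at 229, 217 and 209.6 CPM in Nanog+E-cadherin+ cells and at 193, 162 and 119 CPM in Nanog+E-cadherin- cells. In CPM the groups did not overlap, and its Nanog+E-cadherin+ libraries lay close together, at 218 ± 9.66 CPM (SD, n = 3). In TPM the groups overlapped, and the Nanog+E-cadherin+ libraries stood at 126 ± 27.1 TPM (SD, n = 3).

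Replication protein A, which coats single-stranded DNA, had fitted values above 0 for Rpa1 and Rpa2, which were higher in all 3 pairs, and below 0 for Rpa3. Rpa1 stood at 269, 229 and 227 CPM in Nanog+E-cadherin+ cells and at 221, 138 and 139 CPM in Nanog+E-cadherin- cells. The groups did not overlap, and its log2 fold change was 0.57 ± 0.15 (SE, blocked; adjusted p = 0.225 in edgeR's test). Rpa2 was 1.19-fold to 1.57-fold higher in the pairs. Rpa3, the smallest subunit, was 34.7 ± 18.02 against 36.4 ± 11.7 CPM (SD, n = 3 each), with ratios of 1.12-fold, 0.998-fold and 0.674-fold. The 3 subunits had similar levels per length, at 120.3 ± 26.5 TPM for Rpa1, 104 ± 20.4 for Rpa3 and 88.2 ± 15.7 for Rpa2 (SD, n = 6), none apart from its neighbour beyond the spread.

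Ribonucleotide reductase, which makes deoxyribonucleotides, had its subunit genes higher in every pair. Rrm1, the large subunit, stood at 366, 455 and 387 CPM in Nanog+E-cadherin+ cells and at 273, 253 and 284 CPM in Nanog+E-cadherin- cells. In CPM the groups were apart and narrow, and Rrm1 did not follow the high values of the libraries numbered 1. In TPM the groups overlapped, with Rrm1 at 119, 242 and 188 against 94.9, 134 and 160 TPM. Its log2 fold change was nearly the same in both fits, 0.58 ± 0.21 and, blocked, 0.57 ± 0.14 (SE, adjusted p = 0.201 in edgeR's blocked test). Rrm2, the small subunit made in S phase, stood at 537, 294 and 235 CPM in Nanog+E-cadherin+ cells and at 382, 169 and 163 CPM in Nanog+E-cadherin- cells. Its group-only standard error was 0.45 against 0.14 with the block, with log2 fold changes of 0.58 and 0.61 (adjusted p = 0.173 in the blocked test).

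**Figure D4:**
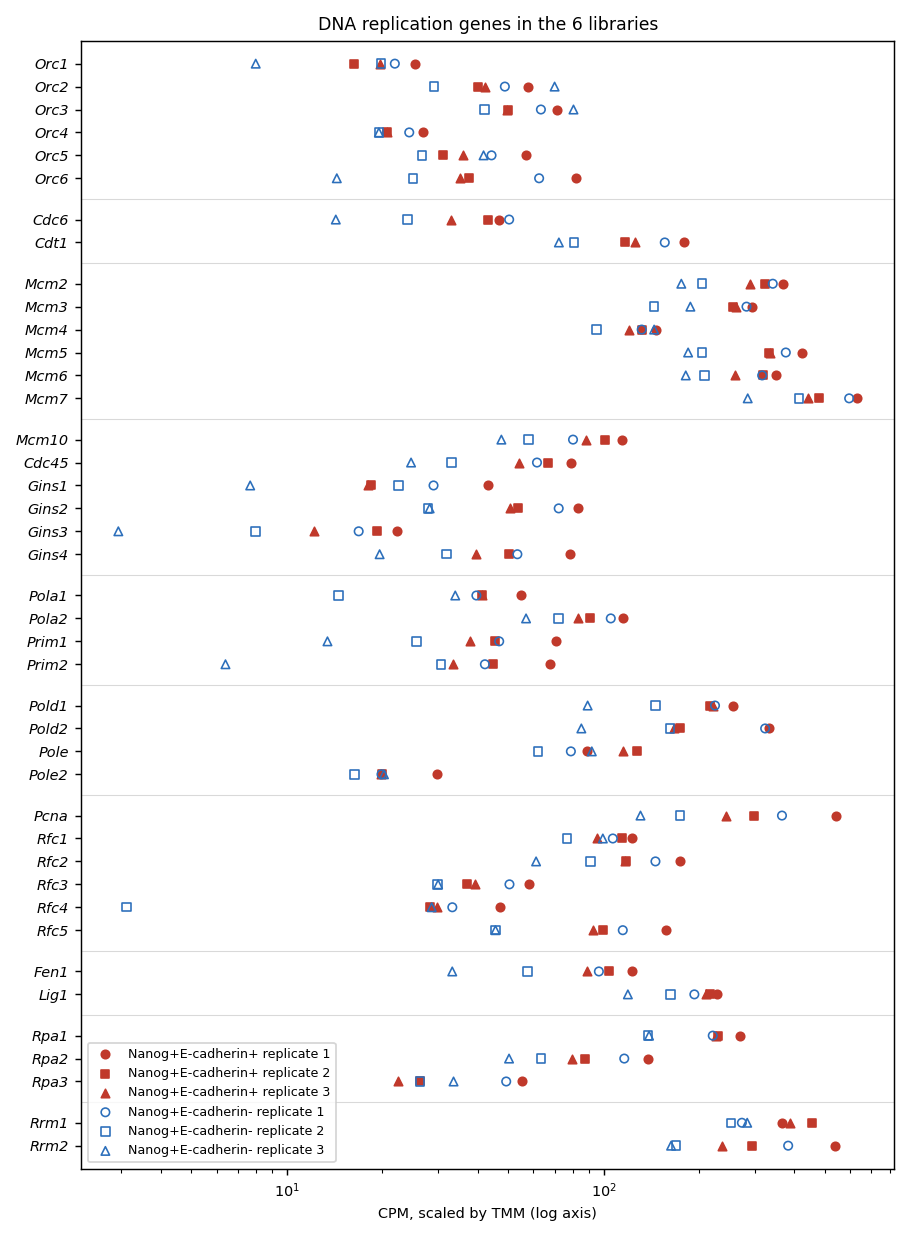
CPM (x axis, log scale) of each of the 41 genes in the 6 libraries, with filled red markers for Nanog+E-cadherin+ and open blue markers for Nanog+E-cadherin-, and shapes for the replicate number. Circles, the libraries numbered 1, lie to the right for most genes, and Rfc4 in Nanog+E-cadherin- replicate 2 stands alone at 3.12 CPM.

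A list of 43 further genes, with accessory polymerase subunits, firing and checkpoint factors, chromatin assembly factors and nucleotide enzymes, had a median log2 fold change of 0.37 in both fits, and 37 were fitted higher. In edgeR's test over all genes 0 passed in either fit, and with group only 0 passed in DESeq2 and limma-voom. Of the 43, 20 were higher and 1 lower at an unadjusted p under 0.05 with the block (5.51% and 5.19% of all genes). In all 3 pairs 27 were higher and 1, Top1, was lower (18.9% and 17.3% of all genes). The gene lower at that p was Tyms, at 151, 137 and 115 CPM in Nanog+E-cadherin+ cells. In Nanog+E-cadherin- cells Tyms stood at 110, 750 and 333 CPM, and its log2 fold change was -1.20 ± 0.46 (SE, blocked). Tk1, thymidine kinase, stood at 252, 144 and 141 CPM in Nanog+E-cadherin+ cells and at 165, 71.0 and 76.4 CPM in Nanog+E-cadherin- cells, with a log2 fold change of 0.83 ± 0.15 (SE, blocked; adjusted p = 0.0864 in edgeR's test). The Pcna-associated factor 2810417H13Rik was 0.86 ± 0.16 (SE, adjusted p = 0.0978) and Dbf4, the activator of the origin-firing kinase Cdc7, 0.76 ± 0.17 (SE, adjusted p = 0.160). Cdc7 itself was nearly level, at 45.04 against 44.2 CPM.

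Beside neighbouring parts of the cell cycle the replication genes lay in the middle. The 31 regulators of G1 and S entry had a median log2 fold change of 0.25 in the blocked fit, and 15 were higher and 4 lower in all 3 pairs (18.9% and 17.3% of all genes). Ccna2 (0.74 ± 0.16), Ccne1 (0.76 ± 0.18) and Mybl2 (0.63 ± 0.15, SE, blocked), which encode cyclins A2 and E1 and the factor B-Myb, had the smallest p of that list, and none passed in edgeR's test. The 24 G2-M genes had a median of 1.01, and 11 of them rose in edgeR's blocked test (0.215% of all genes), where 0 of the 41 replication genes did. With group only edgeR called 0 of the 24 and 0 of the 41. In that fit 18 of the 24 and 2 of the 41 were higher at an unadjusted p under 0.05 (1.08% of all genes). Blocked DESeq2 called 12 of the 41 replication genes, as given above, and its count for the G2-M genes is not given here. Those 11 were Ube2c, Cdk1, Plk1, Ccnb1, Ccnf, Aurka, Aurkb, Top2a, Kif20a, Prc1 and Nusap1. In the pair numbered 3, the median ratio was 1.64-fold for the replication genes and 1.62-fold for the G2-M genes, while in the pairs numbered 1 and 2 it was 1.18-fold and 1.49-fold against 2.16-fold and 2.22-fold. The difference between these lists was not tested, and the lists were chosen with earlier results of these data known.

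**Figure D5:**
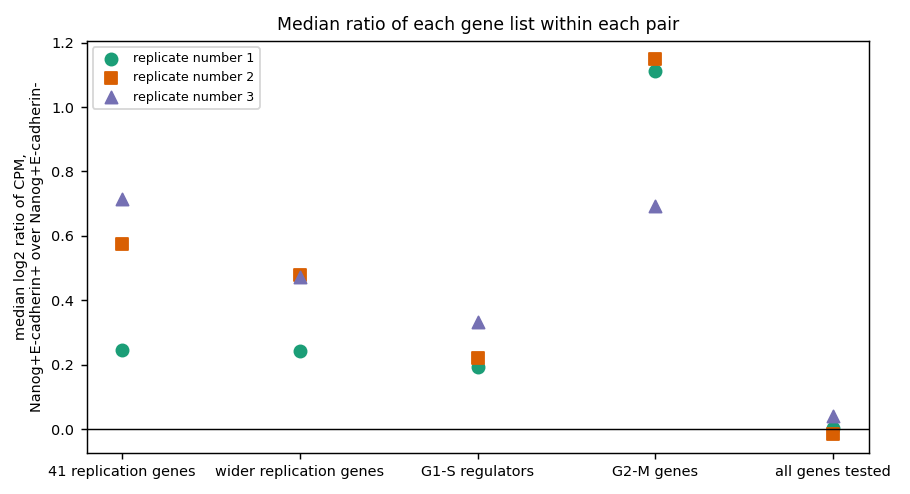
Median log2 ratio of CPM (y axis) of each gene list within each pair of equal replicate number, with 1 marker per pair. The replication genes run from 0.24 to 0.71, the G2-M genes from 0.69 to 1.15, and all genes tested stay near 0.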

How the data were processed

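Per the submitters' processing notes, reads were handled with Bowtie and RSEM 1.2.4 on genome build mm9. For settings, filters and strand the sources used here give nothing. Per the file headers, the authors deposited expected counts, TPM and FPKM for 20325 genes in each library. The deposited expected counts were rounded to whole numbers for tests. The authors' TPM values were used for levels between genes, the lengths only to see whether a gene's length shifted between libraries, and the deposited FPKM values were not used.

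Total expected counts ran from 8851110 to 39630916 per library. Tests used edgeR 4.0.16 in R 4.3.3 with group as the only term, by quasi-likelihood on TMM-scaled counts. The filter (filterByExpr) asked for a count of 10 and a total of 15, and p-values were adjusted by Benjamini-Hochberg over the 13460 genes it kept. Alternatives were the replicate block, DESeq2 1.42.0, limma 3.58.1, other scalings, no filter, a robust fit, log2(TPM + 1) and log2(TPM + 0.1), and left-out libraries. Pair ratios are of CPM + 0.5. Standard errors given for edgeR were derived from its test, as the absolute log2 fold change over the square root of the F statistic. Same-numbered libraries deviated together from their group means (correlations across genes of 0.81, 0.46 and 0.56), and this pairing comes from the values, not from the labels. Libraries of different numbers had correlations from -0.66 to 0.19. Taking deviations from group means by itself pushes these down when same-numbered libraries correlate, so their negative values are no separate sign of pairing. The correlations between numbers 2 and 3 were positive, at 0.19 and 0.13, so these numbers are less clearly separate from each other than from number 1. The steps were tested on simulated data with a smaller dispersion than edgeR fitted here. The fitted coefficient of variation was 0.50 with group only and 0.28 with the block. That test therefore gives no rate of missed or false calls for these libraries.

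Groups and replicate numbers come from the titles. The members and lists were chosen with earlier results of these data known. Values in every library are given, in each role group, for the member of smallest p in the blocked fit and the member of highest mean TPM, and for others named after their values were seen (Rfc4, Gins3 and Rrm1). Of other lists, the 3 genes of smallest p and any that passed are named. Other named genes were chosen after their values were seen. Promoters come from RefSeq (GRCm38.p6) and matched 34 of 41 members by symbol. Coordinates of mm9 are not used. GENCODE names of overlapping genes are from GRCm38.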

Additional observations from a re-analysis of the deposited data

How the results depend on the processing

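Over all genes, 0 passed with group only, 41 with the replicate block, 21 with DESeq2's Wald test and 1 without a filter. Of the replication genes, 0 passed under each of the 16 alternatives to the group-only fit, though DESeq2's gave some members no adjusted p. Taking the replicate block as the starting fit, 0 passed in edgeR, 12 with DESeq2's Wald test, 5 with limma-voom and 13 without a filter, between 1 and 9 without both libraries of a number, and 0 with other scalings or a robust fit. The members' median log2 fold change ran from 0.28 to 0.85 without a single library. Members without overlap numbered 10 in CPM of library totals, 16 in TPM and between 5 and 30 without a single library. In limma-voom Orc2 turned to 0.0084. Without a single library the group-only value ran from -0.025 to 0.57 for Orc1, -0.34 to 0.26 for Orc2, -0.33 to 0.11 for Orc3, -0.029 to 0.23 for Orc4, -0.16 to 0.31 for Orc5, -0.049 to 0.23 for Mcm4, -0.12 to 0.82 for Gins1, -0.16 to 0.87 for Pold2 and -0.58 to 0.23 for Rpa3. Without both Nanog+E-cadherin- libraries numbered 2 and 3, which leaves 1 library assumed to vary like the others, the median was -0.049 and 18 members were fitted higher. There, values turned below 0 for Orc1, Orc4, Orc5 and Rfc2 (each -0.10), Orc6 (-0.28), Cdc6 (-0.30), Cdt1 (-0.15), Mcm2 (-0.070), Mcm3 (-0.064), Mcm5 (-0.049), Mcm6 (-0.038), Mcm7 and Gins2 (each -0.21), Gins1 and Pola2 (each -0.13), Pold2 (-0.53), Pcna (-0.022), Rfc3 (-0.17), Rpa2 (-0.20) and Rrm2 (-0.11). The causes were not tested. The shallowest library, Nanog+E-cadherin- replicate 3, limits Gins3 (28 expected counts there).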
